A study of Mus musculus with 2 samples.

Results

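The 78 mitochondrial ribosomal protein genes of G1E cells were all detected, and most stood above the typical expressed gene while remaining far below the genes for the cytosolic ribosome. They were chosen as the protein-coding genes whose GENCODE name begins with Mrpl or Mrps and a number, which gave 49 large-subunit and 29 small-subunit names among the 43346 genes in the tables. One of them, Mrpl33, carries an older gene identifier in the tables and was found through its transcript identifiers. Levels are given as TPM, the estimated reads of a gene per unit of effective transcript length on a fixed library total, which allows genes to be compared.

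G1E is a male, immortalized mouse erythroid progenitor line without functional Gata1, labelled as strain C57BL/6J, of postnatal stage and age 0 day. Total RNA with the ribosomal RNA removed was sequenced in 2 libraries, which the labels number as biological replicates 1 and 2, each made from 100 ng of RNA with the ScriptSeq method and a size range of 200 to 1000 nt. Both libraries carry the same genotype and no treatment, so they form 1 group and there is no contrast between conditions. Whether the replicates were separate cultures of 1 clone is not given in the labels, and their spread may be partly technical. Replicate 1 had 58094631 expected counts on genes and replicate 2 had 55274368, of which the members took 0.315% and 0.332%. Single members had 231 to 6901 counts in replicate 1, with a median of 1976, and 357 to 6741 in replicate 2, with a median of 1991. The labelled cell type was checked against marker genes. All 8 erythroid progenitor markers were detected, at a median of 24.9 ± 0.643 TPM (SD, n = 2). The highest were Kit at 88.5 ± 11.9 TPM and Myb at 45.1 ± 3.03 TPM. The lowest were Epor at 2.74 ± 0.707 TPM and Klf1 at 9.63 ± 0.141 TPM. None of 4 lymphoid, 5 granulocyte and macrophage, 2 fibroblast or 2 pluripotency markers was detected. Of 3 mast cell markers, Cpa3 stood at 105 ± 11.3 TPM and Cma1 at 36.2 ± 0.212 TPM, with Mcpt8 listed at 0. The part of these cells or genes in the members' levels was not tested. Reads on the Gata1 gene gave 7.10 ± 0.0495 TPM, and the gene tables do not say which of its exons they cover.

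The mitochondrial ribosome translates the few proteins encoded in mitochondrial DNA, all of them subunits of the respiratory chain and ATP synthase. Its ribosomal RNAs are made inside the organelle, while every one of its proteins is encoded in the nucleus, made in the cytosol and imported. A part of these proteins descends from the bacterial ribosome, and others were added in the mitochondrial lineage. In red cell precursors, respiration and heme synthesis both depend on mitochondria, since the first and last steps of heme synthesis take place there.

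The median member had a level of 13.7 ± 0.276 TPM (SD of the library medians, n = 2), with a median of 13.8 TPM in replicate 1 and 13.4 TPM in replicate 2. Detected nuclear protein-coding genes had a median of 7.01 ± 0.523 TPM. All 78 members had at least 1 TPM in both libraries, the detection threshold used here, against 38.6% of the 21548 nuclear protein-coding genes. The mean of the libraries was at least 5 TPM for 70 members, at least 10 TPM for 49 and at least 30 TPM for 10. The middle of the list was narrow, with quartiles of 8.09 and 24.8 TPM. Between genes, the SD of log2 TPM was 1.08 over the members and 1.68 over detected nuclear protein-coding genes. The highest member, Mrps21, exceeded the lowest, Mrps34, 34.5-fold. Together the members summed to 1424 TPM in replicate 1 and 1396 TPM in replicate 2, which was 0.788% and 0.822% of the TPM on nuclear protein-coding genes. Nuclear protein-coding genes themselves held 180574 and 169822 TPM of each library's fixed total. The make-up of the rest was not examined. On a TPM scale filled by nuclear protein-coding genes alone, the members' median was 78.0 ± 1.80 TPM.

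**Figure D1:**
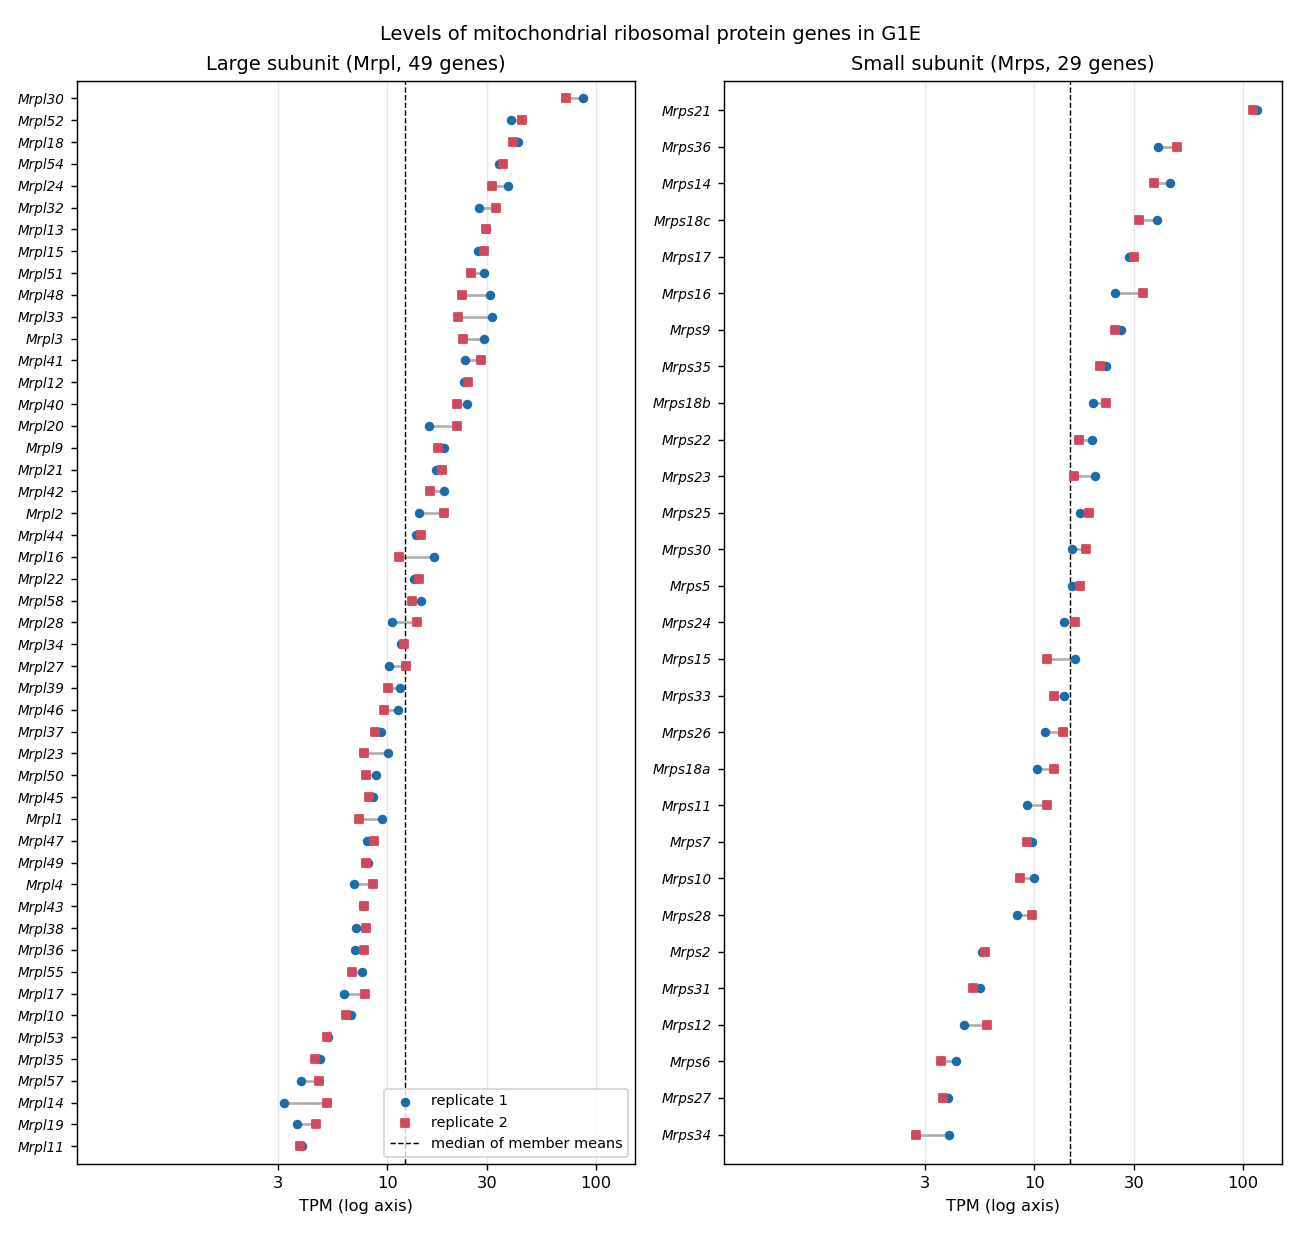
TPM of each of the 78 members on a log axis, large subunit on the left and small subunit on the right, ordered by mean; circles are replicate 1, squares are replicate 2 and the dashed line is the median of the member means. Mrps21 and Mrpl30 lie apart at the top, and 62 of 77 neighbouring pairs in the joint order change places in at least 1 library.

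Among the 49 large-subunit genes the median was 12.1 ± 0.467 TPM, with quartiles of 7.72 and 25.96 TPM, and 29 of them had a mean of at least 10 TPM. Mrpl30, the mitochondrial form of the universal protein L30, was the highest of them, with 86.8 TPM in replicate 1 and 71.5 TPM in replicate 2. Mrpl52, a protein found only in mitochondrial ribosomes, had 39.2 and 44.2 TPM. Mrpl18, whose bacterial counterpart binds 5S ribosomal RNA, had 42.1 and 40.1 TPM. Mrpl30 exceeded Mrps36, the next gene in the joint order of both subunits, by more than the replicate error, and of 77 neighbouring pairs in that order it was the 1 to do so. Mrpl54, another mitochondrion-specific protein, had 34.5 and 35.8 TPM. Mrpl24, whose bacterial counterpart starts the assembly of the large subunit, had 37.9 and 31.8 TPM. Mrpl32, which is matured in mouse mitochondria by the m-AAA protease before it enters the ribosome, had 27.6 and 33.0 TPM. Behind Mrpl30 the order was not resolved at any step. Mrpl13, the mitochondrial L13, had 29.8 TPM in both libraries, and Mrpl15, the mitochondrial L15, had 27.2 and 28.9 TPM.

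A group of 7 large-subunit genes followed with means of 22.8 to 27.0 TPM, namely Mrpl51, Mrpl48, Mrpl33, Mrpl3, Mrpl41, Mrpl12 and Mrpl40. Another 14 had means of 10.4 to 18.7 TPM. They were Mrpl20, Mrpl9, Mrpl21, Mrpl42, Mrpl2, Mrpl44, Mrpl16, Mrpl22, Mrpl58, Mrpl28, Mrpl34, Mrpl27, Mrpl39 and Mrpl46. Mrpl58 among these encodes a peptidyl-tRNA hydrolase that frees stalled ribosomes, and it stood at 13.8 ± 1.03 TPM. Mrpl2, which lies near the peptidyl transferase centre in bacterial ribosomes, stood at 16.4 ± 3.17 TPM. The lower part of the subunit held Mrpl37, Mrpl23, Mrpl50, Mrpl45, Mrpl1, Mrpl47, Mrpl49, Mrpl4, Mrpl43, Mrpl38, Mrpl36, Mrpl55, Mrpl17 and Mrpl10, all with single-library values between 6.20 and 10.03 TPM. Mrpl53 had 5.17 and 5.16 TPM, and Mrpl35 had 4.78 and 4.50 TPM.

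The lowest large-subunit genes were still well measured. Mrpl11, part of the stalk base where elongation factors bind, had 3.89 TPM from 1753 counts in replicate 1 and 3.82 TPM from 1750 counts in replicate 2, and its transcript is long, at 2882 nt. Mrpl19 had 3.69 and 4.54 TPM. Mrpl57 had 3.85 and 4.69 TPM. These 3 genes lay within 1 TPM of each other in both libraries and their order was not resolved. Mrpl14, the mitochondrial L14, had 3.20 TPM from 231 counts in replicate 1 and 5.14 TPM from 387 counts in replicate 2, the widest gap between the libraries of any member on the log scale.

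Among the 29 small-subunit genes the median of the member means was 14.7 TPM, with quartiles of 9.25 and 21.2 TPM. The medians within replicates 1 and 2 were 15.1 and 15.5 TPM (SD 0.247, n = 2). Of these genes, 20 had a mean of at least 10 TPM. Mrps21, the mitochondrial counterpart of bacterial S21, led all members with 116 TPM in replicate 1 and 111 TPM in replicate 2. Its level was higher than that of 98.9% of nuclear protein-coding genes. The authors' deposited intervals for Mrps21 ran from 112 to 119 TPM in replicate 1 and from 107 to 114 TPM in replicate 2, so the libraries overlapped. Mrps36 came next, with 39.0 and 47.9 TPM. The name of Mrps36 is historical, as the protein is known as a component of the 2-oxoglutarate dehydrogenase complex and is absent from structures of the mitochondrial ribosome. Mrps14, the mitochondrial S14, had 44.4 and 37.5 TPM. Mrps18c, one of 3 relatives of bacterial S18, had 38.6 and 31.8 TPM. Mrps36 and Mrps14 exchanged places between the libraries. Mrps17 had 28.5 and 29.9 TPM. Mrps16 had 24.3 and 33.1 TPM, so that it stood below Mrps17 in replicate 1 and above it in replicate 2.

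Mrps9, Mrps35 and Mrps18b had means of 20.6 to 25.1 TPM. Another 11 genes, Mrps22, Mrps23, Mrps25, Mrps30, Mrps5, Mrps24, Mrps15, Mrps33, Mrps26, Mrps18a and Mrps11, had means of 10.3 to 17.6 TPM. Mrps7, Mrps10 and Mrps28 had means of 8.98 to 9.47 TPM, and Mrps2, Mrps31 and Mrps12 of 5.24 to 5.71 TPM. At the bottom, Mrps6, whose bacterial counterpart pairs with S18, had 4.23 and 3.57 TPM. Mrps27, a pentatricopeptide repeat protein, had 3.87 and 3.63 TPM. Mrps34 had 3.91 TPM from 497 counts in replicate 1 and 2.70 TPM from 357 counts in replicate 2. These 3 were the lowest of the subunit in both libraries, and even Mrps34 lay above 70.8% of nuclear protein-coding genes.

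The medians of the subunits differed little. With medians taken within each library, the large-subunit median was below the small-subunit median by 0.38 on the log2 scale in replicate 1. The log2 ratio was thus -0.38 in replicate 1, and it was -0.33 in replicate 2. This is small beside the SD of log2 TPM between genes of 1.03 in the large and 1.17 in the small subunit. With 2 libraries an exact test of this ratio cannot give a p below 0.5, so none was made. The size of the ratio depended on the reads that were counted, since with protein-coding transcripts only its mean over the libraries was -0.058. It was -0.28 when Mrps18a and Mrps30, whose proteins sit in the large subunit despite their names, were moved there and Mrps36 was left out. Proteins of universal or bacterial origin (45 genes) had a median of 13.8 ± 0.0566 TPM, and mitochondrion-specific proteins (31 genes) had a median of 13.2 ± 0.467 TPM. The log2 ratio of these medians was 0.02 in replicate 1 and 0.08 in replicate 2. The extremes were less alike than the medians: 7 of the 45 conserved genes and 2 of the 31 mitochondrion-specific genes had a mean of at least 30 TPM. Mrpl55, a large-subunit protein, and Mrps36 were left out of both classes.

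Proteins that share an origin or a place in the ribosome were compared in pairs, with a difference called when the log2(TPM + 1) ratio passed a limit set by the replicate spread of genes at that level in both libraries, in the same direction. Of 9 such pairs, 6 passed. The 3 relatives of bacterial S18 occupy different places, with Mrps18c in the bacterial S18 position, Mrps18b elsewhere in the small subunit and Mrps18a in the large one. Mrps18b had 19.2 and 22.1 TPM and Mrps18a 10.3 and 12.4 TPM, for a log2 ratio of 0.84 and 0.78, past the limit of 0.51. The log2 ratio of Mrps18a to Mrps18c was -1.81 and -1.29 and also passed. Mrps18b against Mrps18c gave -0.97 and -0.51, and replicate 2 fell short of the limit. Mrps18a was the lowest of the 3 in both libraries. In CPM, the counts per library total with no length correction, the log2 ratio of Mrps18b to Mrps18c was -0.0056 and 0.24, so the order of this pair was not resolved.

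Mrpl12 forms the flexible stalk that recruits translation factors, and several copies of it are anchored to each ribosome by Mrpl10 beside Mrpl11. Mrpl12 had 23.3 and 24.4 TPM, against 6.70 and 6.37 TPM for Mrpl10, a log2 ratio of 1.66 and 1.78. Against Mrpl11 the log2 ratio was 2.31 and 2.40. The ratio of Mrpl12 to Mrpl1, the protein of the opposite stalk, was 1.22 and 1.61 on the log2 scale, from 9.41 and 7.29 TPM for Mrpl1. All 3 comparisons passed the limit of 0.44, so Mrpl12 stood above its anchoring partners in both libraries. Mrps12, which forms part of the decoding centre, had 4.59 and 5.89 TPM and was below Mrps7, a protein of the head of the subunit with 9.69 and 9.25 TPM. Their log2 ratio of -0.94 and -0.57 passed. Mrps16 over Mrps22 (0.36 and 0.98) and Mrpl3 over Mrpl2 (0.99 and 0.29) had a positive log2 ratio in both libraries, and each passed its limit of 0.51 in 1 of them. In CPM Mrps16 was below Mrps22, with a log2 ratio of -1.12 and -0.44 that passed the limit in the opposite direction.

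Other genes of mitochondrial translation are given by role. Proteins of the mitochondrial ribosome that carry other names were listed together with the insertase Oxa1l, which is not a ribosomal protein. All 6 genes of this list were detected, at a median of 21.9 ± 0.258 TPM. Dap3, a GTP-binding protein of the small subunit, had 26.2 and 27.3 TPM, Chchd1 24.4 and 25.8 TPM, Aurkaip1 29.6 and 27.6 TPM, and Ptcd3, a pentatricopeptide repeat protein, 19.8 and 17.7 TPM. These 4 were above the median member in both libraries. Gadd45gip1, at 3.77 and 3.63 TPM, and Oxa1l, the inner-membrane insertase that receives nascent chains, at 4.69 and 4.33 TPM, were in the range of the lowest members.

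Assembly factors were lower, at a median of 3.39 ± 0.499 TPM with 19 of 20 detected. The highest were Mterf3, with 14.9 and 11.3 TPM, and Fastkd2, with 12.1 and 10.5 TPM. Gtpbp10, a GTPase of large-subunit assembly, was under the threshold at 0.50 and 0.40 TPM. Translation factors had a median of 9.03 ± 1.11 TPM and all 14 were detected. The elongation factors Tufm (14.6 and 13.2 TPM) and Gfm1 (16.4 and 14.0 TPM) and the initiation factor Mtif2 (19.5 and 14.1 TPM) were near or above the median member, whereas Mtfmt, which formylates the initiator, had 2.96 and 2.67 TPM. The mRNA-binding partners Lrpprc and Slirp were the highest of this list, at 21.3 ± 1.63 and 27.0 ± 0.622 TPM. The genes for mitochondrial transcription had a median of 5.26 ± 0.449 TPM (6 of 6 detected), with Tfam at 22.2 and 17.3 TPM and the polymerase Polrmt at 3.08 and 2.96 TPM.

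The families that share the ribosome's task or product stood higher. Nuclear subunits of the respiratory chain had a median of 34.8 ± 0.697 TPM, with 80 of 86 detected. The 13 mitochondrially encoded proteins had a median of 136 TPM in replicate 1 and 71.2 TPM in replicate 2, so their level was not well fixed by these libraries. Cytosolic ribosomal proteins had a median of 315 ± 14.5 TPM, with 81 of 84 detected, and held 17.2% and 18.4% of nuclear protein-coding TPM. Among the transcription factors known to act on nuclear genes for mitochondria, Nrf1 had 14.6 and 13.8 TPM, Gabpa 14.9 and 12.01 TPM and Yy1 17.7 and 15.5 TPM. The coactivators Ppargc1a, at 0.05 and 0 TPM, and Ppargc1b, at 0.72 and 0.59 TPM, were under the detection threshold, while their relative Pprc1 had 2.35 and 1.95 TPM. Of the 9 regulators, 7 were detected.

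**Figure D2:**
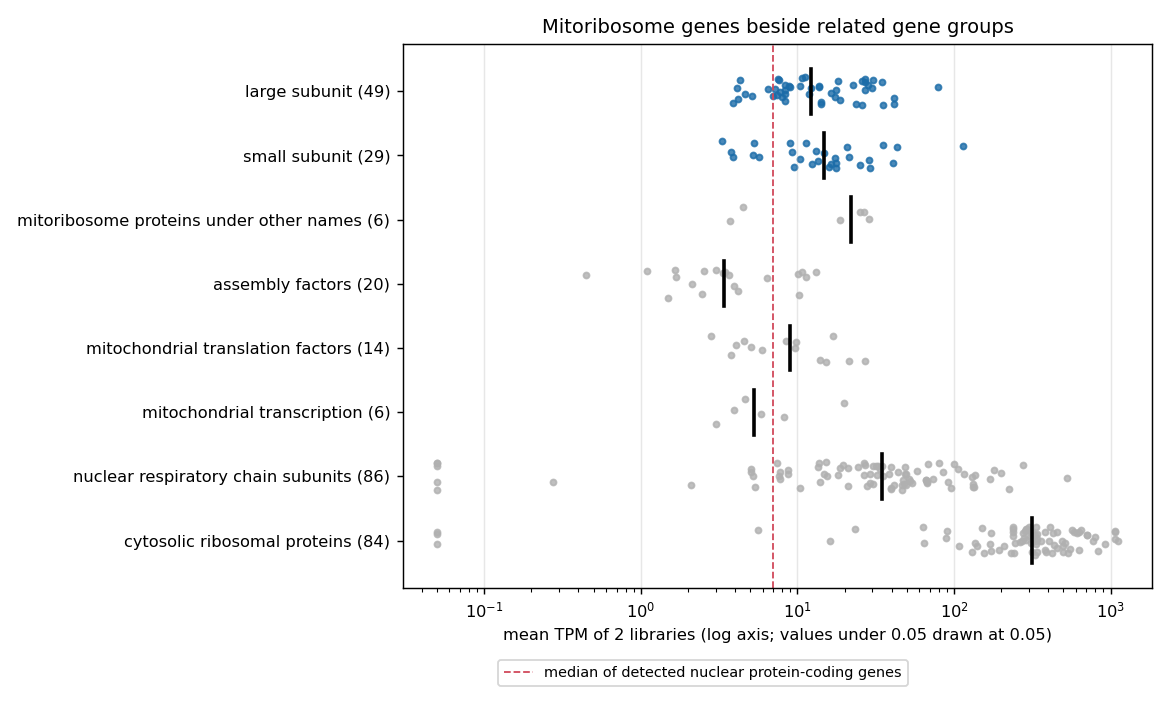
Mean TPM of each gene (points, log axis, n = 2 libraries) in the large and small subunits and in 6 related groups, with the group median as a black bar and the median of detected nuclear protein-coding genes (7.01 TPM) as a dashed line; values under 0.05 TPM are drawn at 0.05. The subunit medians of 12.1 and 14.7 TPM lie above the assembly factors at 3.39 TPM and below the respiratory chain at 34.8 TPM and the cytosolic ribosome at 315 TPM.

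The promoters of the members were read from RefSeq (GRCm38.p6) as 250 bases before to 50 after the start, and an entry was found for 69 of the 78. No entry was matched for Mrpl13, Mrpl15, Mrpl19, Mrpl38, Mrpl4, Mrpl54, Mrps28, Mrps34 and Mrps35. Short motifs of factors linked to this class of genes were searched on both strands, and the shares are set beside those of 6682 detected nuclear protein-coding genes, which include the members, and of all 27025 promoters. The NRF1 core CGCATGCG was present in 7 members (10.1%), against 4.98% of detected genes and 1.91% of all promoters. The core was in 3.12% of 64 promoters of cytosolic ribosomal protein genes. Among the members it was in 6 of 43 large-subunit promoters and 1 of 26 small-subunit promoters. The 8 matches lay 10 to 224 bases before the RefSeq start. They are shown with 11 bases on each side, to give the context of the motif. GENCODE positions, used for the neighbours below, can place the start elsewhere. The matches of Mrpl17, Mrpl32 and Mrpl39 lie inside the GENCODE bounds of their genes. Capitals mark the core, and each line reads along the strand of its gene.
Mrpl10, chr11:97041436-97041465, plus strand: gcccagctccaCGCATGCGcatagcggccc
Mrpl17, chr7:105811079-105811108, minus strand: ccgagttactgCGCATGCGtcctctgagac
Mrpl22, chr11:58171621-58171650, plus strand: gcctcggactgCGCATGCGtatagtcagcc
Mrpl32, upstream match, chr13:14613105-14613134, minus strand: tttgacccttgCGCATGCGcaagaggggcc
Mrpl32, downstream match, chr13:14613042-14613071, minus strand: ggcggacttaaCGCATGCGctcagcccgcg
Mrpl39, chr16:84735350-84735379, minus strand: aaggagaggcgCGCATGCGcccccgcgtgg
Mrpl9, chr3:94443298-94443327, plus strand: aggcgcagctgCGCATGCGcggggtccttc
Mrps18b, chr17:35916646-35916675, minus strand: aaacggcccgaCGCATGCGcactgggagca

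The ETS-type motif CCGGAAG, read by factors such as Gabpa, was present in 25 members (36.2%), against 23.9% of detected genes and 9.12% of all promoters. The YY1 motif AAGATGG was present in 13 members (18.8%), against 8.77% of detected genes and 6.48% of all promoters. In the promoters of cytosolic ribosomal protein genes, 37.5% had the ETS motif and 14.1% the YY1 motif. The letters of the YY1 motif include the start codon ATG, and whether its matches lie at translation starts was not tested. Of the 15 YY1 matches in members, 9 lay after the RefSeq start. The 7 of them that run along the gene's own strand with 11 bases to spare on each side of the window searched are shown, with the motif in capitals, to give the context of the motif.
Mrpl35, chr6:71823744-71823772, minus strand: aggcaggctgcAAGATGGcggcttccatc
Mrpl37, chr4:107066823-107066851, minus strand: ctgcacgggcaAAGATGGcggcgtccagg
Mrpl42, chr10:95501905-95501933, minus strand: cagattgaagcAAGATGGcgagcgcgcgg
Mrpl49, chr19:6057722-6057750, minus strand: gttgaggcgccAAGATGGcagcagcggtg
Mrps18a, chr17:46111004-46111032, plus strand: aggtgcgttccAAGATGGcggccctcagg
Mrps27, chr13:99344789-99344817, plus strand: tggtgcgctccAAGATGGcggctcccatg
Mrps7, chr11:115604147-115604175, plus strand: tgacagcggccAAGATGGctgcccccgcg

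The other motifs differed in how their shares compared. CCAAT was present in 27 members (39.1%), against 40.7% of detected genes. The E-box CACGTG, read by MYC among others, was in 5 members (7.25%), against 11.5%. TATAAA was in 4 members (5.80%), against 5.70%. GATAA, the core read by GATA factors, was in 17 members (24.6%), against 15.4% of detected genes and 25.8% of all promoters. In the promoters of cytosolic ribosomal protein genes, 29.7% had GATAA. Of the 120 matches in members, 2, in 1 promoter, overlapped a match of another motif. For the NRF1 and ETS motifs, members with and without a match had medians close to each other, namely 13.8 TPM with the NRF1 core and 13.7 TPM without it, and 13.8 TPM with the ETS motif and 12.9 TPM without it. With the YY1 motif (13 members) the median was 9.47 TPM and without it (56 members) 14.1 TPM. With CCAAT (27 members) it was 16.4 TPM and without CCAAT (42 members) 13.5 TPM. With the E-box (5 members) it was 16.4 TPM and without the E-box (64 members) 13.7 TPM. These are descriptions with no test, and a match of letters is not a bound site. In Mrps21, the gene with the highest level, the 1 match of the 7 motifs was CCGGAAG on the opposite strand, 18 bases after the start. The 250 bases before its start held no match and are printed in lower case throughout.
Mrps21, chr3:95871515-95871764, minus strand: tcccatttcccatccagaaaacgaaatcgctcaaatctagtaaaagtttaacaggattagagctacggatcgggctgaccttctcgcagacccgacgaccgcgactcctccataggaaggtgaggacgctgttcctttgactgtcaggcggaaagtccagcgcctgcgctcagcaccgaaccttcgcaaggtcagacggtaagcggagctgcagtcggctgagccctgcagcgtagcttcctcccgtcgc

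A protein-coding gene on the other strand started within 1000 bases of 33 members (42.3%), against 20.6% of detected nuclear protein-coding genes and 10.9% of all protein-coding genes. In 18 of these (23.1%, against 13.2% of detected genes) the genes pointed away from each other without overlap, with starts 26 to 935 bases apart. In the other 15 the genes overlapped head to head.

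Among the 18 divergent pairs, the member was higher than its neighbour in both libraries in 12 and lower in 5, and the order changed in 1. Mrpl30 started 66 bases from Mitd1, which acts at the midbody, and had 86.8 and 71.5 TPM beside 20.7 and 20.1 TPM for Mitd1. Mrpl32 started 75 bases from Psma2, a proteasome subunit with 66.1 and 72.5 TPM, and was the lower of the pair. Mrpl49, at 8.11 and 7.91 TPM, started 59 bases from Fau, which encodes a cytosolic ribosomal protein fused to a ubiquitin-like one and had 321 and 314 TPM. Close starts thus occurred with unequal levels, and Mrpl10, at 6.70 and 6.37 TPM, was another case beside Lrrc46, at 0.08 and 0.09 TPM and 153 bases away. Some neighbours work in mitochondria themselves. Mrps12 started 172 bases from Sars2, the mitochondrial seryl-tRNA synthetase, which had 1.51 and 1.58 TPM, and Mrps27 started 81 bases from Ptcd2, with 11.01 and 9.92 TPM. Mrps34 and Eme2 started 29 bases apart and changed order, at 3.91 and 2.70 TPM for Mrps34 and 3.60 and 3.16 TPM for Eme2.

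**Figure D3:**
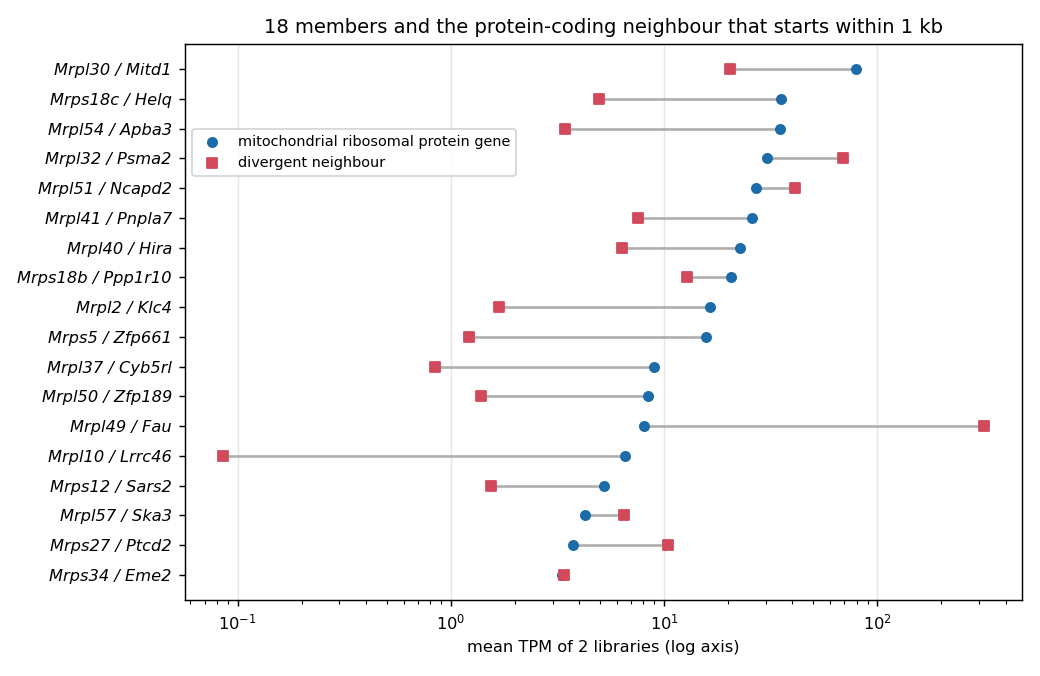
Mean TPM (log axis, n = 2 libraries) of the 18 members with a divergent protein-coding neighbour (circles) and of that neighbour (squares), joined by a line and ordered by the member's level. The widest gaps are Mrpl49 below Fau and Mrpl10 above Lrrc46.

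In the overlapping pairs, reads of both genes cannot be told apart if strand was not used, and the sources here do not state the strand setting of the counts. A pair of members overlap each other: Mrpl46 and Mrps11 have starts 412 bases apart, with 11.2 and 9.60 TPM for Mrpl46 and 9.21 and 11.4 TPM for Mrps11. Mrpl18 overlaps Tcp1, a chaperonin subunit with 185 and 150 TPM. Mrpl36 overlaps Ndufs6 (8.30 and 7.27 TPM) and Mrpl47 overlaps Ndufb5 (50.2 and 55.0 TPM), both subunits of complex I, and Mrpl43 overlaps Twnk, the mitochondrial DNA helicase (3.95 and 3.37 TPM). In all, 36 members (46.2%) were overlapped by some gene on the other strand, against 44.3% of detected genes, and the levels of these 36 are uncertain to that extent.

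The members' transcripts were short. Their median length was 978 nt, ranging between 412 nt for Mrpl52 and 3715 nt for Mrpl35, and 40 of 78 (51.3%) were under 1000 nt, against a median of 2398 nt and 10.5% for detected nuclear protein-coding genes. The effective length of such genes is much shorter than the transcript, so their TPM rests on a large correction. Mrps21 was counted 4471 and 4596 times over an effective length of 227 and 242 nt. Mrpl18 had the most counts of any member, 6901 and 6741. Mrps21 thus led in TPM but not without length correction. Across the 78 members, level and effective length had a Spearman rho of -0.47, which is a description over genes of the same libraries, and it was -0.27 over 8310 detected genes. Without length correction the rho with effective length was 0.28. The part of the length correction in the order of the members was not tested.

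The transcript tables showed from which isoforms the levels came. Types are those of a later GENCODE release, applied to the authors' transcripts. Of 59 members with at least 2 listed transcripts, the median share of TPM in protein-coding transcripts was 91.2% in replicate 1 and 88.4% in replicate 2, against 88.1% and 88.5% over detected nuclear protein-coding genes. Summed over all 78 members, protein-coding transcripts held 80.5% ± 0.333 of TPM (SD, n = 2), transcripts of the nonsense-mediated decay type 8.23% ± 0.299, retained-intron transcripts 7.36% ± 0.286 and processed transcripts 3.76% ± 0.273. The top member was of the first kind: Mrps21 was led by a coding transcript of 405 nt with 60.7% and 66.1% of its TPM, followed by another of 488 nt with 38.4% and 32.9%.

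In 10 of the 59 members (16.9%) less than 50% of TPM was in coding transcripts, against 12.2% of detected genes. Mrps14, among the highest members, had 91.1% and 88.9% of its TPM in a 674 nt transcript of the nonsense-mediated decay type and 8.88% and 11.1% in coding ones. In Mrps26 a retained-intron transcript of 1057 nt held 87.8% and 93.1%, and in Mrps25 one of 565 nt held 68.2% and 75.4%. Mrpl3, the mitochondrial L3, had 10.3% and 9.93% in coding transcripts, Mrpl15 18.1% and 19.1%, and Mrpl51 27.4% and 23.9%. The shares are per length, and by counts the coding transcript led in Mrps25 and Mrpl51. In Mrps25 it had 2958 and 2458 counts, beside 669 and 876 on the 565 nt one. In Mrpl51 it had 3385 and 2611 counts, beside 1004 and 932 on a retained-intron transcript of 580 nt. In Mrps14, Mrps26, Mrpl3 and Mrpl15 a transcript of another type led by counts as well. In Mrps26 the coding transcript is 4278 nt long and still had 941 and 659 counts, beside 1401 and 1889 on the shorter one. Mrpl32 had a single listed transcript of 768 nt, which is now typed as nonsense-mediated decay. Over all members, counting coding transcripts only gave a median of 9.03 TPM for the large subunit and 8.98 TPM for the small one.

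**Figure D4:**
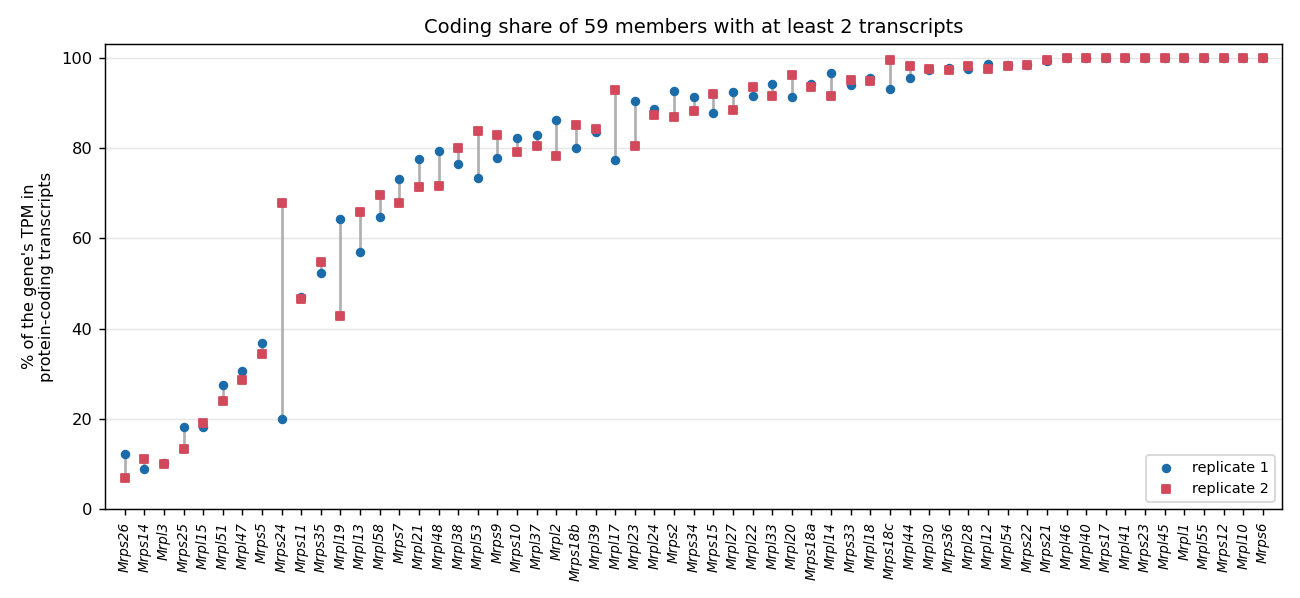
Share of each gene's TPM in protein-coding transcripts (per cent, linear axis) for the 59 members with at least 2 transcripts, ordered by mean; circles are replicate 1 and squares replicate 2. Most members lie near the top, 10 lie under 50%, and Mrps24 differs most between the libraries, at 19.96% and 67.7%.

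The leading transcript was the same in both libraries for 53 of the 59 (89.8%), against 88.2% of detected genes. The other 6 were Mrpl3, Mrpl13, Mrpl17, Mrpl19, Mrps10 and Mrps24. Mrps10 was led by a coding transcript of 1017 nt in replicate 1 (57.2% of its TPM) and by one of 1018 nt in replicate 2 (73.2%), a difference of 1 base in length. In Mrps24 the leader was a 700 nt retained-intron transcript in replicate 1 (77.5%) and a 995 nt coding transcript in replicate 2 (67.7%). The gene's effective length differed between the libraries for Mrps24 (540 and 695 nt) and Mrpl17 (1655 and 1240 nt) and was nearly the same for Mrpl13 (752 and 751 nt). For Mrpl19 the effective length was 3193 nt in replicate 1 and 2212 nt in replicate 2, so that its TPM was higher in replicate 2 (3.69 and 4.54) although its counts were lower (1991 and 1709).

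The libraries gave nearly the same picture of the members. The pooled replicate SD of log2(TPM + 1) was 0.17 for the members and 0.17 for detected nuclear protein-coding genes. For the 29 members of 1 to 10 TPM it was 0.15, against 0.16 for coding genes in that range, and for the 48 members of 10 to 100 TPM it was 0.18, against 0.18. Across the 78 members the TPM of the libraries had a Spearman rho of 0.97, a description over genes.

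Counts were compared between replicate 2 and replicate 1 with a two-sided exact binomial test for every gene, which compares these libraries and covers counting error only. At least 2-fold and an adjusted p under 0.05 were asked for. None of the 78 members met this, with edgeR or with DESeq2 library sizes, and none reached 2-fold at any p. Over all 18409 genes tested 14.7% were called, and of 5976 other nuclear protein-coding genes in the members' TPM range 14 were (0.234%), 12 of them higher in replicate 2. With no minimum fold, 54 members (69.2%) had an adjusted p under 0.05, 49 higher and 5 lower in replicate 2. Of those other genes 69.2% did, 2607 higher and 1526 lower, so the members called were more often higher. The members' median log2 ratio of replicate 2 to replicate 1 was 0.14 in counts, with a range of -0.34 for Mrpl16 to 0.91 for Mrpl14, against 0.05 for the other genes. In TPM the median ratio was -0.01, with 38 members higher and 40 lower in replicate 2, against -0.15. The largest differences in TPM on the log2 scale were 0.68 for Mrpl14, -0.55 for Mrpl16, -0.55 for Mrpl33 and -0.53 for Mrps34. For Mrpl16 this was 11.4 TPM in replicate 2 and 16.7 TPM in replicate 1, and for Mrpl33 it was 21.8 TPM in replicate 2 and 31.9 TPM in replicate 1. Mrpl14 was the least counted member in replicate 1, and its exact binomial test gave an adjusted p of 1.83e-13.

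**Figure D5:**
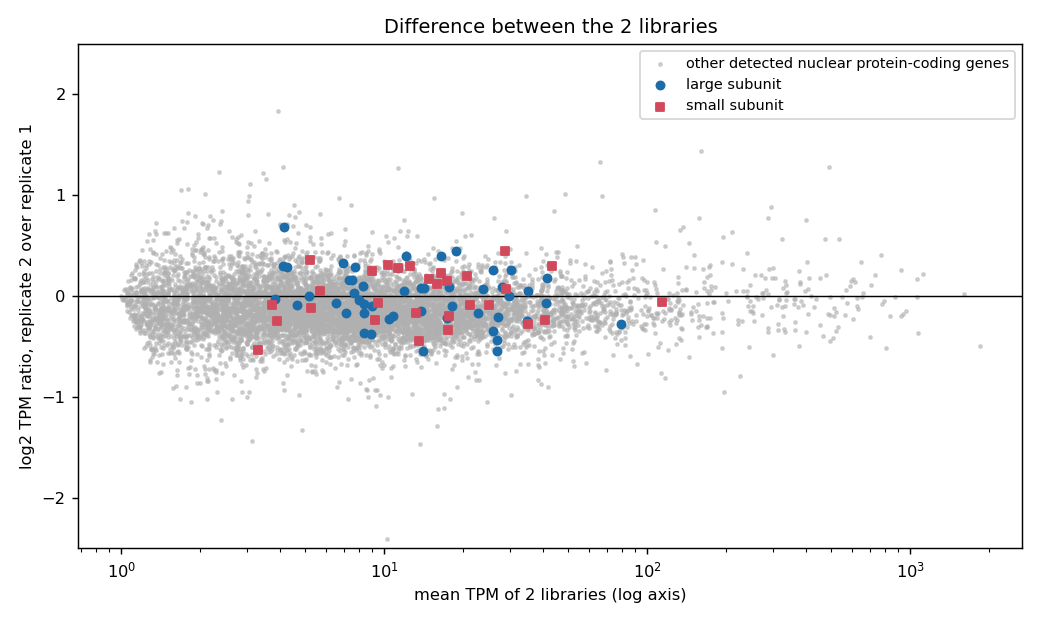
Log2 ratio of TPM, replicate 2 over replicate 1, against mean TPM (log axis) for the large subunit (circles), the small subunit (squares) and other detected nuclear protein-coding genes (grey). All 78 members lie between -0.55 and 0.68, inside the grey cloud.

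Mrpl23 was the 1 member marked for shared reads, as the deposited posterior SD of its count was over 5% of the mean in a library (4.59% and 5.33%). It had 10.03 TPM from 815 counts in replicate 1 and 7.71 TPM from 660 counts in replicate 2, and its level is uncertain. Without it the median of the large subunit was 13.0 TPM.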

How the data were processed

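Per the file headers, the authors deposited for each library a gene and a transcript table with expected counts, which are estimated reads per gene with reads that fit several genes divided among them, and TPM values, in which these reads are taken per effective length and brought to 1 fixed total. The transcript tables also give, per the file headers, the percent of a gene's abundance in each transcript as the authors computed it. The main results used the expected counts and TPM, with percent shares recomputed from TPM. Deposited effective lengths, posterior means and SDs and TPM intervals were used where they are named. Read-me texts deposited with the tables give mm10 and GENCODE M4. The aligner and quantifier and their versions were not given in the sources used here.

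Names, gene and transcript types and positions came from GENCODE M21 (GRCm38), matched by gene ID for 42462 of 43346 genes and by transcript ID for 150, with 734 unmatched. A gene was detected at 1 TPM or more in both libraries. Expected counts were rounded to whole numbers and the libraries compared by a two-sided exact binomial test with edgeR 4.0.16 TMM library sizes (R 4.3.3). It was adjusted by Benjamini-Hochberg over every gene with 10 or more counts in the libraries together. Calls needed an adjusted p under 0.05 and at least 2-fold. The test was tested on simulated data whose noise was counting error only, which cannot show its rate of false calls under wider replicate spread. Pairs of members were compared by log2(TPM + 1), against 1.96 times the square root of 2 times the pooled replicate SD at the level of the lower gene. DESeq2 1.42.0 size factors and other scales were alternatives. Every member is named; full values go to the 8 highest and 4 lowest large-subunit and the 6 highest and 3 lowest small-subunit members, the pairs, the member with shared reads and the 6 with the lowest coding share. The members and lists were chosen with earlier results of these data known. NRF1 was searched by an 8-letter core, chosen later than the other motifs. Counting errors leave out PCR duplicates, since the reads carry no molecular identifiers. Tables and figures were made with Python 3.11.15, pandas 2.3.3, scipy 1.17.1 and matplotlib 3.10.9.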

Additional observations from a re-analysis of the deposited data

Results flagged for a closer look

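Reads were also assigned to pseudogenes of members, which are outside the list. Mrpl23-ps1, on mouse chromosome 2, had a mean of 25.6 TPM (23.5 and 27.6 TPM in replicates 1 and 2), above its parent Mrpl23 at 10.03 and 7.71 TPM. Mrpl48-ps had a mean of 3.90 TPM, against 30.9 and 22.9 TPM for Mrpl48. Mrps36-ps1 had a mean of 0.605 TPM, from 13.8 and 8.09 counts, and carried a shared-read mark. Mrps36-ps2, with the same mark, had a mean of 0.715 TPM from 0 counts in replicate 1 and 29.9 in replicate 2. Mrps36-ps3 had 3 and 0 counts. There are no control samples. In both libraries Mrpl23-ps1, Mrpl48-ps and Mrps36-ps1 stood above the limit of 3 counts that a count of 0 allows, and Mrps36-ps2 and Mrps36-ps3 did not. Whether the reads come from the pseudogenes or from their parents was not tested.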

How the results depend on the processing

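In CPM, with no length correction, the median was 32.3 for the large and 38.2 for the small subunit, their log2 ratio -0.27 and the log2 ratio of conserved to mitochondrion-specific proteins -0.14, opposite to its sign in TPM. On a TPM scale filled by nuclear protein-coding genes alone, the medians were 69.7 and 84.3 TPM. With protein-coding transcripts only, the medians of the member means were 9.03 and 8.98 TPM, so the large subunit was slightly higher. The subunit log2 ratios given here are means of the ratios within each library. For protein-coding transcripts this mean was -0.058, so the direction depended on the summary used. Without the shared-read member the large-subunit median was 13.0 TPM and the log2 ratio -0.28. With Mrps18a and Mrps30 in the large subunit and Mrps36 left out, the small-subunit median was 14.2 TPM and the log2 ratio -0.28. Leaving out each replicate in turn gave 11.7 to 12.3 TPM for the large and 15.1 to 15.5 TPM for the small subunit. With no minimum fold 54 members differed between the libraries, against 0 with it. In CPM 8 pairs of members passed, against 6, but Mrps16 to Mrps22 passed in reverse, at log2 -1.12 and -0.44, and Mrps18b to Mrps18c changed sign in replicate 2 (0.24). The cause was not tested. As tallies, the 41 alternatives not given above as moved kept their direction, stayed within the replicate spread or, for counts, within 1.5 times. Agreement of the leading transcript without a replicate was not run, as it needs both libraries. No paired analysis was possible because the libraries form 1 group. Depth limits the least counted members, such as Mrpl14 at 231 and 387 counts.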
